A study of Mus musculus with 8 samples.

Results

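The 10 genes described here bring long-chain fatty acids into a cell, carry them in the cytosol and join them to coenzyme A. They are Cd36, Slc27a1, Slc27a4, Fabp5, Acbd4, Acsl1, Acsl3, Acsl4, Acsl5 and Acsl6. Each was looked up by its exact symbol among 21160 genes that had an array feature of their own, called a transcript cluster, and 9 of the 10 were found this way. The other, Acsl3, lies in a cluster shared with Utp14b, so its signal cannot be given to either gene. Values were compared over 8 arrays of female mouse CD8+ T cells on day 2, in 4 groups of 2 arrays. The groups were cells cultured with an agonist of PPARα, of PPARβ or of PPARγ, and cells given DMSO, the solvent control. Per the series' design text, the cells were naive, were stimulated in vitro in all groups and were treated for 48 h. Compounds, doses, the stimulus, strain and age are not stated in the labels. Each group held 1 array of each of 2 title prefixes, called culture set 1 and culture set 2, and the labels do not say what a prefix marks. Culture set is a name used only here, and whether the sets were separate cultures is not stated.

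Long-chain fatty acids enter cells by diffusion and with the help of CD36 and of the fatty acid transport proteins of the Slc27 family. In the cytosol they are held by fatty acid-binding proteins. Long-chain acyl-CoA synthetases, the ACSL enzymes, trap them as acyl-CoA, which acyl-CoA-binding proteins carry to oxidation, to membrane lipids or to storage. The PPARs are nuclear receptors that bind fatty acids and pair with RXR on DNA, and genes of uptake and activation, Acsl1 and Cd36 among them, are known PPAR targets in liver, muscle or fat. Activated T cells take up fatty acids to build membranes, and memory CD8+ T cells rely on fatty acid oxidation.

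The DNA before the gene starts is shown for 4 members, so that their values can be read beside it: Acsl1 and Slc27a1, which lay below DMSO in both sets with the PPARβ agonist, and Acsl6 and Cd36, where the hexamer that PPAR and RXR recognise was found. Promoters are the 250 bases before the start in RefSeq, build GRCm38.p6, 5′ to 3′ on the strand of the gene, with matches in capitals. For Acsl1, Slc27a1 and Acsl6, which have several starts in that table, the start nearest to the array cluster is shown. Acbd4, which also lay below DMSO in both sets with the PPARβ agonist, had no promoter in that table, and neither had Fabp5. The positions are chr8:46470787-46471036 (plus strand) for Acsl1, chr8:71568621-71568870 (plus) for Slc27a1, chr11:54303574-54303823 (plus) for Acsl6 and chr5:17835897-17836146 (minus) for Cd36.
Acsl1: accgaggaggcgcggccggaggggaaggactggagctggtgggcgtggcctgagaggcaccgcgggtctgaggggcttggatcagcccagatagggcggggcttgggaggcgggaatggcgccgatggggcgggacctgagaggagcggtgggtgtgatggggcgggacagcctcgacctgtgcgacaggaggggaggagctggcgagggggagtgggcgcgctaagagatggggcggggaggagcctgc
Slc27a1: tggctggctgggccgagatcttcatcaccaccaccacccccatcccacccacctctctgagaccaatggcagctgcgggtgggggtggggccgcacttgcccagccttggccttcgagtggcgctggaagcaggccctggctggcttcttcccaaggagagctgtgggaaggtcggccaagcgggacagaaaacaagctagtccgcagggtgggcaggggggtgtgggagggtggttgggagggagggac
Acsl6: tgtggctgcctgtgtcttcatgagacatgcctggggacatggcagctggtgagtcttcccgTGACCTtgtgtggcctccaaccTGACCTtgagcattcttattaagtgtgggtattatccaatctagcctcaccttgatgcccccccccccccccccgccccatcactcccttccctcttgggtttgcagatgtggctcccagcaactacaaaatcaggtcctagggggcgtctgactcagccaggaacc
Cd36: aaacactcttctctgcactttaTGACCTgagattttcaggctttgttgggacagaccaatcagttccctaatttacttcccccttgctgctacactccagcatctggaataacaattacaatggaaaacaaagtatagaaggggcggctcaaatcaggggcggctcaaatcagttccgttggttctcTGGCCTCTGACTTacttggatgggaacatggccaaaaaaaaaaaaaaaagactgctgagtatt
The search was for AGGTCA on both strands and for its direct repeat, 2 copies of AGGTCA with 1 free base between them, with at most 2 mismatches. Matches on the opposite strand read as the reverse complement, as do all 4 here. The Acsl6 window held the hexamer at 189 and at 167 bases before the start, and the Cd36 window at 228 bases. The windows of the other Acsl6 starts held no hexamer. The Cd36 start used lies inside its array cluster, which runs upstream to 17888959. Cd36 also held a repeat-like match with 2 mismatches, 63 bases before the start. The windows of Acsl1 and Slc27a1 held neither. Over the 13 promoters of the 8 members matched in the table, 2 held the hexamer and 1 the repeat with mismatches. Of all 32851 promoters in the table, 14 percent held the hexamer and 3.2 percent the repeat with mismatches. A match is a description of these letters, and binding was not measured.

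The arrays carried the transcripts of CD8+ T cells. Cd8a, which encodes the CD8 alpha chain, ranged from 16.48 to 16.73 over the 8 arrays, and all 7 markers of CD8+ T cells were above the limit set for testing. That limit was a mean log2 value of 4.892, the 40th percentile, and 12696 genes passed it. Of 40 markers of 9 other cell types, 15 passed it. Those that passed were Cd79b (9.13 to 9.94 over the arrays) and H2-Ab1 (6.41 to 8.89) of 6 B cell markers, Itgam and Cd68 (7.80 to 8.56) of 7 macrophage markers, Siglech (5.34 to 5.97) of 5 dendritic cell markers, S100a9, Mpo and Kit (6.49 to 7.44) of 6 neutrophil and mast cell markers, Pf4, Gp9 and Itga2b (7.04 to 8.28) of 4 platelet markers, Pecam1 (11.83 to 12.13) of 4 endothelial markers, Cidec (4.92 to 5.45) of 4 fat cell markers, and Cd4 and Cd40lg, the 2 CD4+ T cell markers with a cluster of their own. Csf1r (macrophages), Itgax (dendritic cells), Ncr1 (NK cells), Ppbp (platelets), Cdh5 (endothelium) and Adipoq (fat cells) lay below it. The 2 NK cell markers, Ncr1 and Klrb1c, lay below the limit on all arrays. With the PPARβ agonist their mean level was 4.05 and 4.20, against 3.55 and 3.64 with DMSO. This difference lies below the limit and is not read, and its part in the member values was not tested. In bulk RNA, fewer cells of a type and less RNA per cell cannot be told apart.

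All values below are log2 RMA values, with set 1 before set 2, and group means are ± SD with n = 2 arrays. Coordinates of clusters are on mm10, per the file headers. Of the 9 members with a cluster of their own, 8 passed the limit, with Acbd4 nearest above it at a mean of 5.81, and Cd36 at 3.96 did not. The members were selected on the log2 values of these same 8 arrays, in which Acsl1, Slc27a1 and Acbd4 lay below DMSO with the PPARβ agonist and Acsl1 with the PPARα agonist. Their differences between treatments are therefore a description and carry no test. The 3 comparisons with DMSO share the same 2 DMSO arrays, 1 in each set, so that a low agonist array and a high DMSO array cannot be told apart within a set. With 2 arrays in a group, groups lie apart easily, and the share of all genes whose groups did not overlap was not counted.

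**Figure D1:**
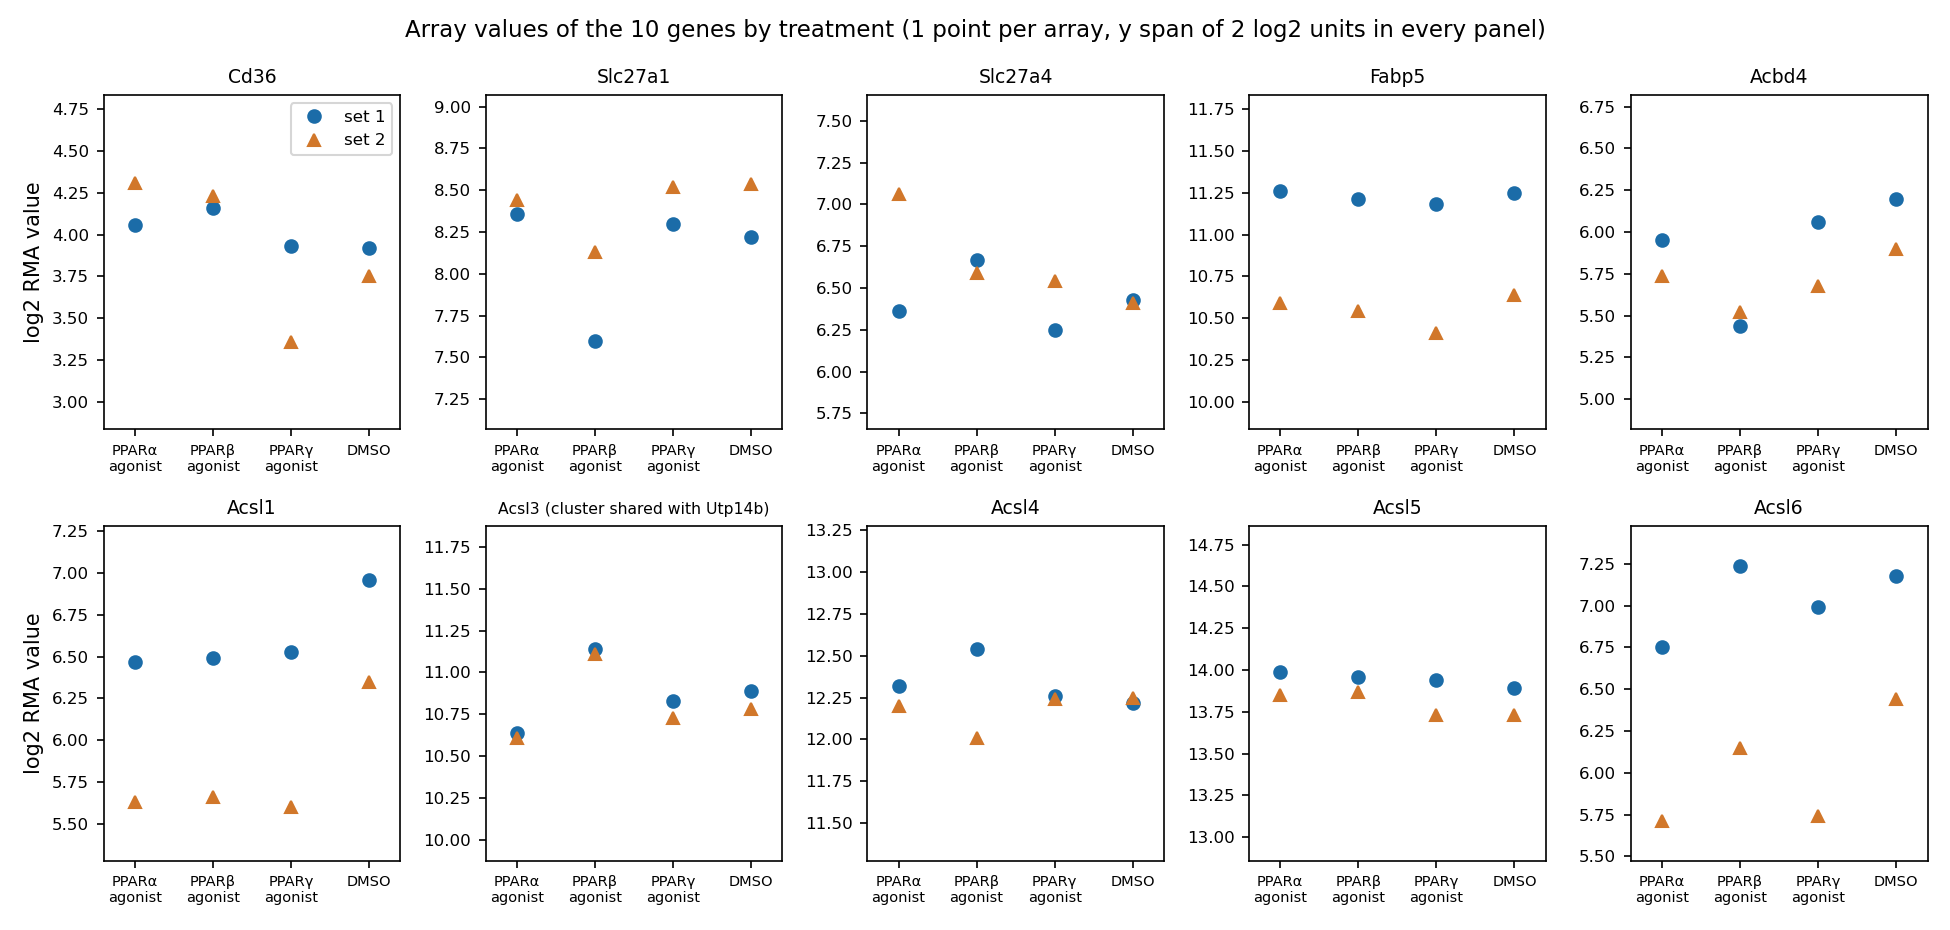
Log2 RMA value (vertical axis) of the 10 members on each of the 8 arrays, by treatment (horizontal axis); circles are set 1, triangles set 2, and each panel spans 2 log2 units. Acsl1 was highest with DMSO in both sets, at 6.96 and 6.35, Slc27a1 was lowest with the PPARβ agonist in both sets, at 7.60 and 8.13, and Fabp5 differed mainly between sets.

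Slc27a1, which encodes the transport protein FATP1 of the plasma membrane (chromosome 8, 71568927 to 71586708), was lowest with the PPARβ agonist. It read 8.36 and 8.44 under PPARα agonist, 7.60 and 8.13 under PPARβ agonist, 8.30 and 8.52 under PPARγ agonist, and 8.22 and 8.54 in DMSO. The PPARβ arrays lay below the other 3 arrays in each set. The PPARβ mean was 7.87 ± 0.37 and the DMSO mean 8.38 ± 0.23, a difference of -0.52 (1.43-fold), with -0.62 in set 1 and -0.42 in set 2. With the PPARα and PPARγ agonists the differences from DMSO were 0.02 and 0.03. Against the other agonists, the PPARβ agonist gave -0.53 (PPARα) and -0.55 (PPARγ).

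Slc27a4, which encodes FATP4, a transport protein with acyl-CoA synthetase activity (chromosome 2, 29802634 to 29817522), showed no order common to the sets. It read 6.36 and 7.06 under PPARα agonist, 6.67 and 6.59 under PPARβ agonist, 6.25 and 6.54 under PPARγ agonist, and 6.43 and 6.41 in DMSO. The PPARα array of set 2 stood 0.65 above DMSO, while that of set 1 stood at -0.07. The PPARβ agonist lay above DMSO in both sets, by 0.24 and 0.18.

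Cd36, the scavenger receptor and fatty acid translocase (chromosome 5, 17781690 to 17888959), lay below the limit for testing on all 8 arrays. It read 4.06 and 4.31 under PPARα agonist, 4.16 and 4.23 under PPARβ agonist, 3.93 and 3.36 under PPARγ agonist, and 3.92 and 3.75 in DMSO. It was not tested, and its differences, which the plots of differences show, lie below that limit and are not read.

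Fabp5, the epidermal fatty acid-binding protein, known to carry ligands to PPARβ in the nucleus (chromosome 3, 10012548 to 10016610), was nearly level over the treatments. Within set 1 its 4 arrays spanned 0.09, between 11.18 and 11.26, and within set 2 they spanned 0.22, between 10.41 and 10.64. Its differences from DMSO were -0.02 with the PPARα agonist, -0.07 with the PPARβ agonist and -0.15 with the PPARγ agonist. 

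Acbd4, a member of the acyl-CoA-binding domain family that tethers peroxisomes to the endoplasmic reticulum in human cells (chromosome 11, 103101682 to 103112200), was also lowest with the PPARβ agonist. It read 5.95 and 5.74 under PPARα agonist, 5.44 and 5.52 under PPARβ agonist, 6.06 and 5.68 under PPARγ agonist, and 6.2 and 5.90 in DMSO. The PPARβ arrays lay below all 6 other arrays, and DMSO was highest in each set. The PPARβ mean was 5.48 ± 0.06 and the DMSO mean 6.05 ± 0.22, a difference of -0.57 (1.48-fold), with -0.76 and -0.38 in the sets. The PPARα and PPARγ differences from DMSO were -0.20 and -0.17.

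Acsl1, the acyl-CoA synthetase that leads in liver, heart and fat (chromosome 8, 46471041 to 46536051), was lower with every agonist than with DMSO in both sets. It read 6.47 and 5.63 under PPARα agonist, 6.49 and 5.66 under PPARβ agonist, 6.53 and 5.60 under PPARγ agonist, and 6.96 and 6.35 in DMSO. The 3 agonist arrays of a set lay within 0.06 of each other, and the DMSO array stood apart above them. The means were 6.05 ± 0.60, 6.07 ± 0.59 and 6.06 ± 0.66 for PPARα, PPARβ and PPARγ agonist, and 6.66 ± 0.43 with DMSO. The differences were -0.61, -0.58 and -0.59 (1.53-, 1.5- and 1.51-fold), between -0.43 and -0.49 in set 1 and between -0.70 and -0.75 in set 2. The group ranges overlapped, and set 2 read lower than set 1 under every treatment. Between the agonists the differences were 0.02 (PPARβ minus PPARα), 0.01 (PPARβ minus PPARγ) and 0.02 (PPARγ minus PPARα).

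Acsl6, a synthetase that prefers polyunsaturated fatty acids and is best known from brain (chromosome 11, 54303798 to 54364756), was lowest with the PPARα agonist in both sets. It read 6.75 and 5.71 under PPARα agonist, 7.24 and 6.15 under PPARβ agonist, 6.99 and 5.74 under PPARγ agonist, and 7.18 and 6.44 in DMSO. The PPARα agonist stood at -0.43 and -0.73 relative to DMSO in the sets, and the PPARγ agonist at -0.19 and -0.70. The PPARβ agonist stood at 0.06 in set 1 and -0.29 in set 2. It was above the PPARα agonist by 0.49 and 0.44. All 4 groups overlapped, and the sets lay further apart than the treatments.

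Acsl5, a synthetase of mitochondria and endoplasmic reticulum (chromosome 19, 55253369 to 55296628), and Acsl4, which prefers arachidonic acid and is known for its part in ferroptosis (chromosome X, 142317993 to 142390535), varied little with treatment. Acsl5 spanned 13.73 to 13.99 over the 8 arrays, and its differences from DMSO were 0.11, 0.10 and 0.02 for PPARα, PPARβ and PPARγ agonist. Acsl4 read 12.54 and 12.01 with the PPARβ agonist, on either side of 12.22 and 12.25 with DMSO, and between 12.20 and 12.32 with the other agonists. The cluster shared by Acsl3, a synthetase of the endoplasmic reticulum and of new lipid droplets, and Utp14b (chromosome 1, 78657825 to 78707743) was highest with the PPARβ agonist, at 11.14 and 11.11. It read 10.64 and 10.61 under PPARα agonist, 10.83 and 10.73 under PPARγ agonist, and 10.89 and 10.78 in DMSO. The PPARβ arrays of this cluster lay above DMSO by 0.26 and 0.34, and above all 6 other arrays.

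**Figure D2:**
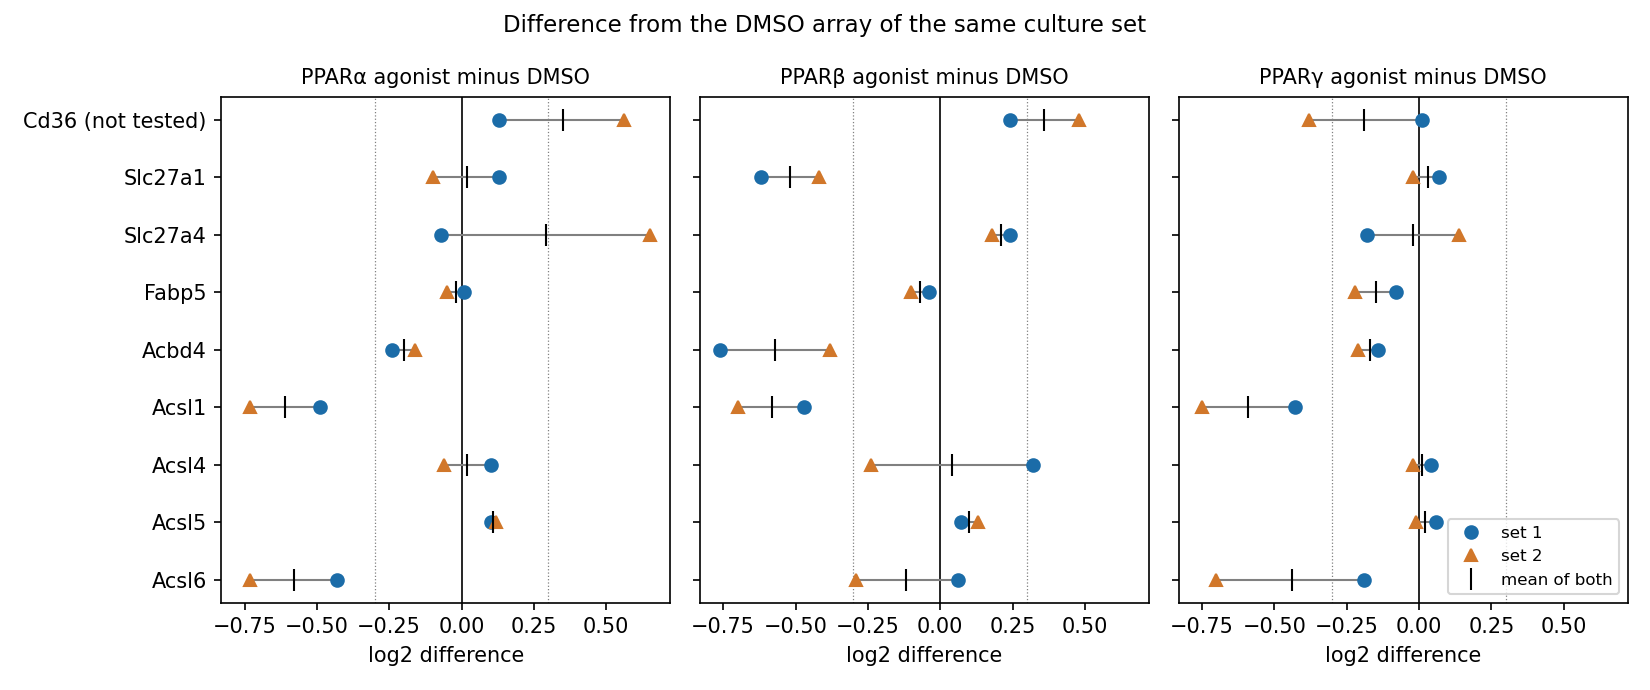
Log2 difference (horizontal axis) of each agonist array from the DMSO array of its culture set for the 9 members with a cluster of their own; circles are set 1, triangles set 2, black ticks the mean of both, and dotted lines mark 0.3 on either side of 0. Acsl1 lay beyond -0.3 in both sets with all 3 agonists, Slc27a1 and Acbd4 only with the PPARβ agonist and Acsl6 only with the PPARα agonist.

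Across all 12696 tested genes, limma fits with Benjamini-Hochberg adjustment at 0.05 called 0 of the 8 tested members in any of the 6 comparisons, without or with the culture set as a block. The share of all genes called was 0.0 percent for the PPARα agonist, 0.00788 percent (1 gene) for the PPARβ agonist and 0.0 percent for the PPARγ agonist against DMSO. With the block it was 0.0, 0.0236 and 0.0 percent in that order. For PPARβ against PPARα it was 0.00788 percent, or 0.0158 percent with the block, and the same shares were reached for PPARβ against PPARγ. For PPARγ against PPARα it was 0.0 percent in both fits.

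At an unadjusted p under 0.05, which is not a call, the fit without the block listed 0 members for the PPARα, 1 (Acbd4) for the PPARβ and 0 for the PPARγ agonist against DMSO, beside 1.77, 2.35 and 2.17 percent of all genes. The fit with the block listed 2 (Acsl1 and Acsl6), 3 (Acsl1, Slc27a1 and Acbd4) and 2 (Acsl1 and Acsl6), beside 4.86, 6.13 and 5.84 percent. Between agonists it listed 3 members for PPARβ against PPARα (Acsl6, Slc27a1 and Acbd4; 5.91 percent of all genes), 2 for PPARβ against PPARγ (Slc27a1 and Acbd4; 7.07 percent) and 0 for PPARγ against PPARα (5.69 percent). Without the block these counts were 1 (Slc27a1; 2.32 percent), 1 (Slc27a1; 2.65 percent) and 0 (2.01 percent). Since the members were picked with these differences in view, nothing is read from their excess over the background.

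Counted by size, 2 members lay below DMSO by at least 0.3 in both sets with the PPARα agonist (2.36 percent of all genes), 3 with the PPARβ agonist (2.76 percent) and 1 with the PPARγ agonist (2.59 percent). None of the 8 lay above DMSO by that much in both sets with the PPARα, PPARβ or PPARγ agonist, beside 2.43, 2.71 and 2.68 percent of all genes. Acsl1 was 1 of 25 genes (0.197 percent) that lay below DMSO by at least 0.3 in both sets with all 3 agonists. Between agonists, Acsl6 under PPARβ agonist exceeded its PPARα value by that much in both sets (2.92 percent of all genes higher) and Slc27a1 lay below it (2.63 percent lower). Slc27a1 under PPARβ agonist also lay below its PPARγ value (2.62 percent of all genes lower). The PPARβ array was the lowest of the 4 in both sets for 2 members, Slc27a1 and Acbd4, beside 6.84 percent of all genes. The PPARα array was lowest for Acsl6 (6.69 percent), the PPARγ array for Fabp5 (6.89 percent), and the DMSO array was highest for Acsl1 and Acbd4 (7.5 percent). The median difference of the 8 members from DMSO was -0.002 with the PPARα agonist, -0.094 with the PPARβ agonist and -0.086 with the PPARγ agonist, beside -0.018, -0.011 and -0.011 over all tested genes. With the PPARβ agonist this median was 0.009 in set 1 and -0.27 in set 2, with the PPARα agonist -0.032 and -0.080, and with the PPARγ agonist -0.107 and -0.116. Of the 8 members, 4, 3 and 3 stood above 0 with the PPARα, PPARβ and PPARγ agonist, beside 45.8, 47.5 and 47.8 percent of all tested genes.

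The difference between the culture sets was not used to choose the members and was tested. It was added after the values were seen. Each side is 1 title prefix, so its p-values measure the spread of the difference over the 4 treatments. They do not say whether other prefixes would differ in the same way. Acsl6, Acsl1 and Fabp5 were higher in set 1 than in set 2 under all 4 treatments. Acsl6 averaged 7.04 ± 0.22 in set 1 and 6.01 ± 0.35 in set 2 (SD over 4 treatments), a 2.04-fold difference (log2 difference 1.03, SE 0.113, limma adjusted p = 0.00294). Acsl1 averaged 6.61 ± 0.23 and 5.81 ± 0.36 (0.80, 1.74-fold, SE 0.0999, limma adjusted p = 0.00397). Fabp5 averaged 11.23 ± 0.04 and 10.54 ± 0.10 (0.68, 1.61-fold, SE 0.0916, limma adjusted p = 0.00499). These 3 of 8 members compare with 17.0 percent of all tested genes called, 2156 in number, and with 9.74 percent called higher in set 1. The 17.0 percent, called in either direction, became 8.29 to 10.5 percent with any 1 array left out, under which the 3 members stayed called. Leaving out either array of a treatment gives the same fit of the set difference, so not all of these fits are separate. Counted by sign, set 1 lay above set 2 under all 4 treatments for 4 members (20.6 percent of all genes) and below it for 1 (19.4 percent). At an unadjusted p under 0.05 there were 4 members, beside 32.7 percent of all genes.

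For Fabp5 the 2 sets did not overlap at all, and the gap of 0.68 was larger than the span of 0.09 or 0.22 over the treatments within a set. For Acsl1 the lowest set 1 array, at 6.47, lay above the highest set 2 array, at 6.35, and for Acsl6 these were 6.75 and 6.44. The share of all genes whose sets lay fully apart in this way was not counted. By sign alone, set 1 lay above set 2 under all 4 treatments for 20.6 percent of all genes, so such gaps are not particular to these members. Slc27a1 ran the other way under all 4 treatments, with a mean of -0.29 and an adjusted p of 0.110 in limma, which misses the threshold. Acsl5 stood higher in set 1 under all 4 treatments by a mean of 0.15 (limma adjusted p = 0.297). Acsl4, Slc27a4 and Acbd4 had adjusted p-values of 0.409, 0.345 and 0.249 in limma. The mean level of the 2 CD4+ T cell markers, Cd4 and Cd40lg, also stood apart, at 7.46 to 7.71 in set 1 and 6.53 to 7.22 in set 2, and its part in these differences was not tested.

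**Figure D3:**
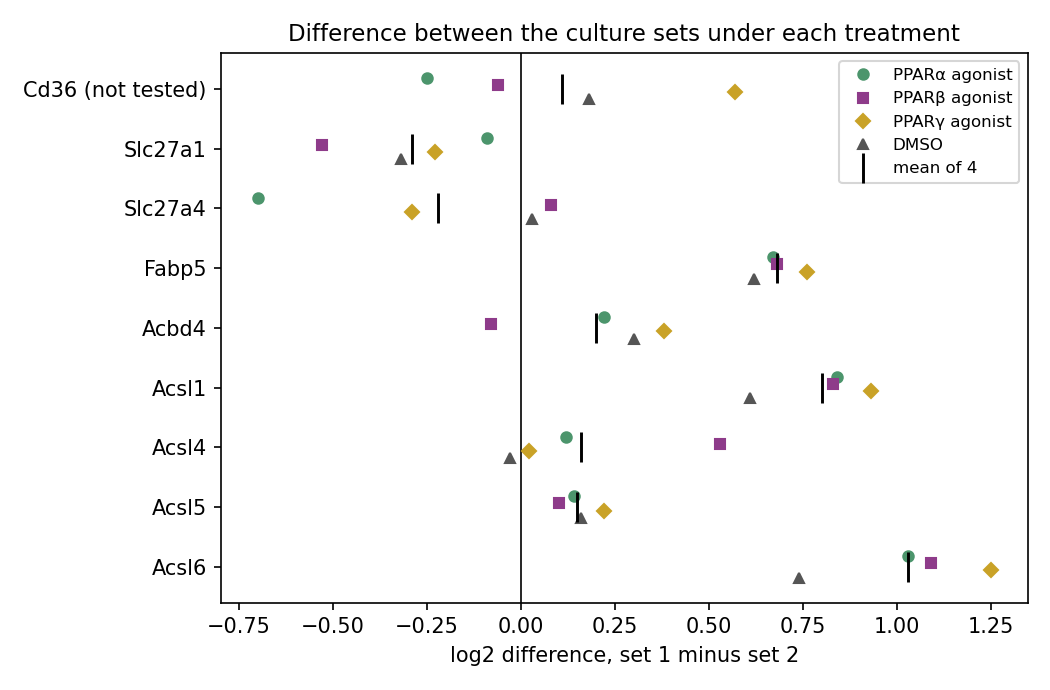
Log2 difference, set 1 minus set 2 (horizontal axis), of each member under each of the 4 treatments (symbols), with the mean as a black tick. All 4 points of Acsl6, Acsl1 and Fabp5 lie at 0.61 or above, while those of Acsl4, Slc27a4, Acbd4 and Cd36 fall on both sides of 0.

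Around these members, 106 other genes of the same route were listed by role, and 69 of them were tested. limma called 0 of the 69 in each agonist comparison with DMSO in either fit. Among the 69, an unadjusted p under 0.05 was reached, in the fit without the block, by 0 for the PPARα agonist, 3 (2 higher, 1 lower) for the PPARβ agonist and 0 for the PPARγ agonist, and in the blocked fit by 2 (0 higher, 2 lower), 6 (3 higher, 3 lower) and 2 (0 higher, 2 lower). The values named below therefore describe these arrays only.

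The first users of acyl-CoA held the largest differences, 29 tested genes with a median of 0.08 with the PPARβ agonist. Cpt1a, which passes acyl groups to carnitine at the mitochondrial surface, read 12.60 and 13.19 under PPARβ agonist, against 10.11 and 11.46 in DMSO, a difference of 2.11. Slc25a20, the carrier that brings acylcarnitine into mitochondria, read 11.55 and 11.63, against 10.35 and 10.79, a difference of 1.02. Mboat1, a lysophospholipid acyltransferase, stood at 0.44 and 0.35 above DMSO in the sets. With the PPARα agonist Cpt1a stood at 0.40, Mboat1 at 0.34 and Lpcat4, which also reacylates lysophospholipids, at -0.44. The mean difference of Lpcat4 was -0.36 with the PPARβ agonist and -0.60 with the PPARγ agonist, but with neither did it reach 0.3 below DMSO in both sets. With the PPARγ agonist Dgat2, which makes triglyceride, stood at -0.44 and Slc25a20 at -0.38.

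Acyl-CoA thioesterases undo activation by splitting acyl-CoA. Their 13 tested genes had medians of -0.07, -0.07 and -0.14 for PPARα, PPARβ and PPARγ agonist. Acot10, a mitochondrial thioesterase, read 5.88 and 6.15 under PPARβ agonist, against 6.59 and 6.76 in DMSO, a difference of -0.66. Baat, which conjugates bile acids and acts on acyl-CoA, stood at -0.34 with the PPARγ agonist. With the PPARα and PPARβ agonists its mean differences were -0.24 and -0.28. The PPARγ arrays of Baat, at 4.93 and 5.12, lay close to the limit for testing.

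The other acyl-CoA synthetases had 8 tested genes of 17, with medians of -0.12, -0.05 and -0.16 for PPARα, PPARβ and PPARγ agonist. Among them Slc27a6, a transport protein of the heart, read 4.53 and 4.31 under PPARβ agonist, against 5.73 and 4.77 in DMSO. Only the DMSO array of set 1 among these 4 lay above the limit for testing, so its size is not read. Of 12 tested genes of entry at the surface, Mfsd2a, a lysophosphatidylcholine transporter, stood at -0.35 and -0.34 in the sets with the PPARα agonist. Vldlr, a lipoprotein receptor, stood at -0.70 and -0.30 in the sets with the PPARγ agonist, a mean of -0.502. Under PPARα agonist its mean difference was -0.495, but it did not reach 0.3 below DMSO in both sets. Under PPARβ agonist the mean difference of Vldlr was 0.186. The 6 tested acyl-CoA-binding proteins had 0 genes beyond 0.3 in both sets with any agonist. Only 1 of 13 other lipid-binding proteins passed the limit for testing.

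**Figure D4:**
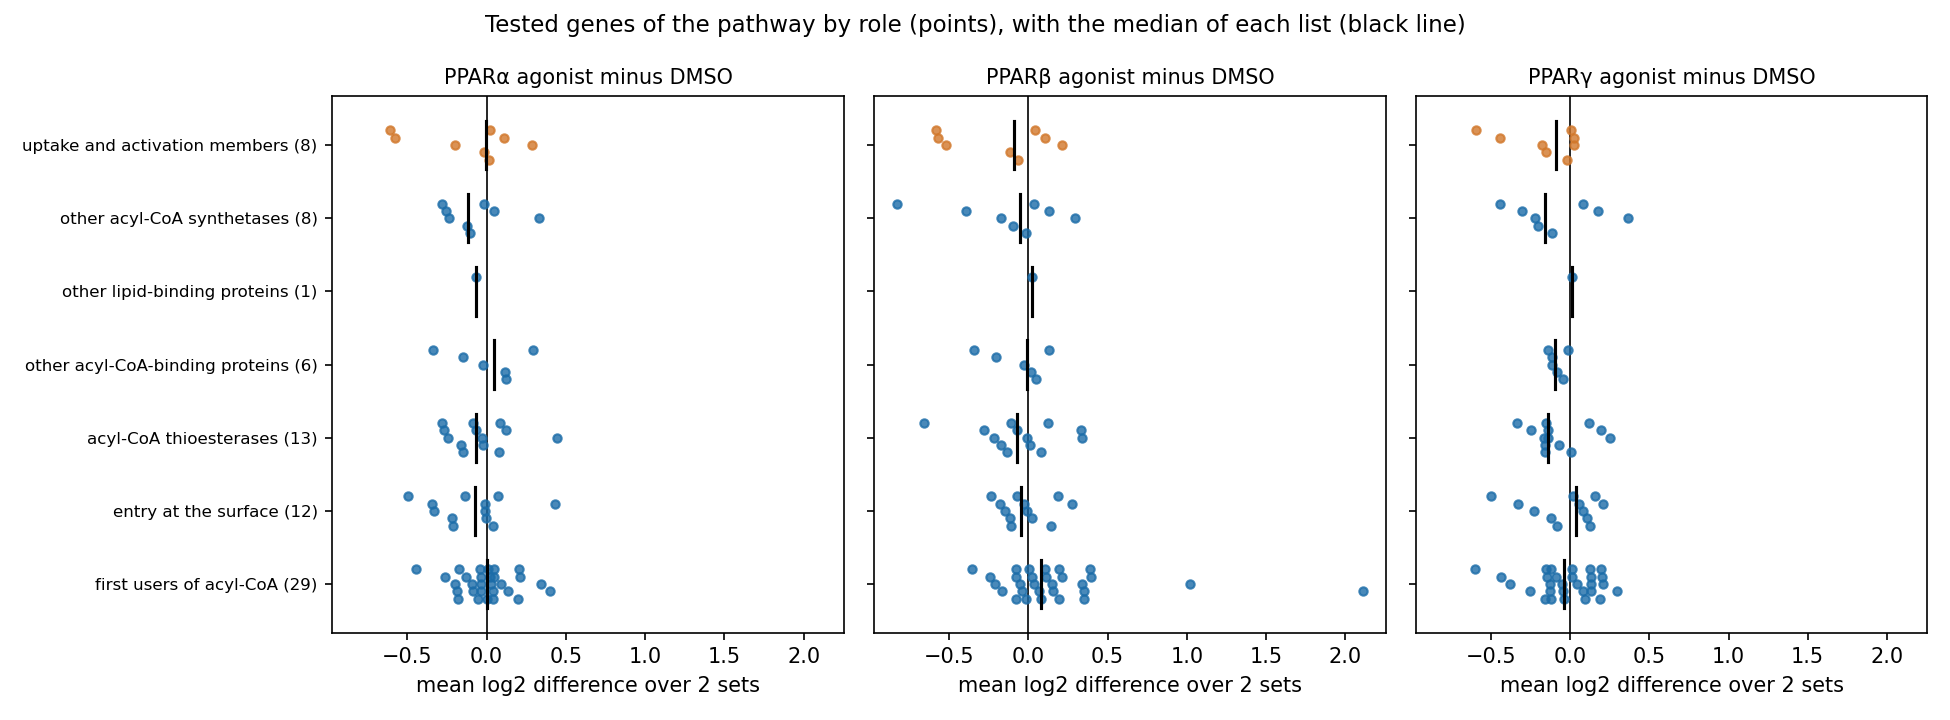
Mean log2 difference from DMSO over the 2 sets (horizontal axis) of each tested gene (points) by role, with the number tested in brackets and the list median as a black line; the members are orange. The points furthest right are Cpt1a at 2.11 and Slc25a20 at 1.02 with the PPARβ agonist.

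Of all pairs of the 8 tested members, Slc27a1 and Acbd4 had the highest Pearson r over the 8 arrays once the mean of each culture set was taken off, at 0.88. Both were selected as low with the PPARβ agonist on these arrays, which builds such a likeness in, and the arrays share their sets, so the value is a description only. That of Acsl1 and Acsl6 was 0.74, and that of Slc27a1 and Acsl1 was 0.27. Plin2, a coat protein of lipid droplets, stood 3.74 above DMSO with the PPARβ agonist (adjusted p = 0.00706 in limma with the block and 0.9999 without it), where Slc27a1 stood at -0.52 and Acbd4 at -0.57.

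The genes most like each of the 4 most variable tested members were taken over all 12695 other genes in the same way. Acsl1 resembled Id1 most (r = 0.991), an inhibitor of DNA binding whose set-centred values were 0.46 and 0.73 with DMSO and between -0.30 and -0.09 with the agonists. Aste1 had an r of 0.969. Acsl6 resembled Kcnk5 (0.990), a potassium channel, Gps1 (0.989), a subunit of the COP9 signalosome, and Sh3bp2 (0.973), an adaptor protein. Slc27a1 resembled Vegfd (0.978), a lymphatic growth factor, Golph3l (0.975), a Golgi protein, and Tmem229b (0.968). Acbd4 resembled Arhgap19 (0.991), Nrtn (0.986), the growth factor neurturin, and Zfp704 (0.964). Between 40 and 54 genes reached r = 0.9 or more with each of these members. The named genes are the highest of 12695 on only 8 values, where a high r can arise without any link between genes. These r values were not tested and are a description only.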

How the data were processed

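Biotin-labelled single-stranded DNA was made from 100 ng of total RNA and measured on Clariom S Mouse arrays, per the labels and the file headers. The deposited values are log2 RMA values, per the submitters' processing notes, and the labels credit them to Expression Console without a version. The labels call the analysis gene-level for 1 array and exon-level for the others, although all arrays hold the same clusters. Array maxima lay between 19.01 and 19.16 and the scaling behind them is not stated, so folds hold on the deposited scale. RMA corrects the background, makes the array distributions alike and summarises the probes of a cluster, which removes a change shared by most transcripts. A linear intensity column that the authors deposited equalled 2 to the power of the log2 value to 1.5e-06 and was not tested. Array medians lay between 5.64 and 5.72. The number of arrays limits the precision. Annotation is release na36 on mm10, per the file headers.

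Of 22206 clusters, 21371 name 1 gene, 832 several and 3 none. By entrez ID 20395 matched a RefSeq table of GRCm38.p6, which updated 899 symbols. Genes with several clusters took the brightest. limma 3.58.1 (R 4.3.3) fitted a mean for each group to the 8 arrays (two-sided, Benjamini-Hochberg over 12696 genes; 4 residual and 3.754 prior degrees of freedom). With the culture set as a block these were 3 and 4.264. Arrays were paired by title prefix. Over genes, the set difference of a group correlated with that of another at 0.496 to 0.550 in the 6 pairs of groups. p-values measure the spread between these arrays, which the labels do not call separate animals or cultures. The fit was tested on simulated data. Python 3.11.15, pandas 2.3.3, numpy 2.4.6 and matplotlib 3.10.9 made tables and plots.

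The members and gene lists were chosen with earlier results of these data known. All members were named, and from each list up to 4 genes per agonist that differed from DMSO in the same direction by at least 0.3 in both sets, plus any gene past the threshold. Cpt1a, Plin2 and Cd8a were named as context, and likeness was taken for the 4 tested members with the largest set-centred SD, leaving out predicted genes. Proteins were not analysed here. Some items that these rules name are not reported here.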

Additional observations from a re-analysis of the deposited data

How the results depend on the processing

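Each of the 6 treatment comparisons was refitted under 16 alternatives. They were the replicate block, the block with an intensity trend and robust variances, no intensity filter, a filter at the 60th percentile, the mean of a gene's clusters, arrays centred on their median, a further quantile normalization, the value matrix, and leaving out each of the 8 arrays. The number of members called was 0 under all of them, the replicate block included, and the block changed no call of a member. The median change of the members with 1 array left out ranged from -0.18 to 0.00 (PPARα agonist against DMSO), -0.37 to 0.20 (PPARβ against DMSO), -0.22 to 0.02 (PPARγ against DMSO), -0.26 to 0.16 (PPARβ against PPARα), -0.30 to 0.29 (PPARβ against PPARγ) and -0.18 to 0.12 (PPARγ against PPARα). Leaving out 1 array unbalances the culture sets, so these ranges hold the set difference. For PPARγ against DMSO the median, -0.09 as reported, was -0.15 without the intensity filter, 0.02 at a 60th-percentile limit, under which 4 members are tested, and -0.08 with centred arrays. For PPARβ against PPARγ it was 0.08 without the filter. For PPARγ against PPARα it was -0.01 without the filter, -0.05 at the 60th percentile and -0.02 with centred arrays or quantile normalization. Apart from leaving out arrays, only median centring and the further quantile normalization could move the difference of a member. The rest use the same values or change which genes are tested. Of the 14 member differences of at least 0.3, 0 turned sign under the alternatives that kept all arrays and 4 with 1 array left out. These were Acsl6 with PPARγ against DMSO (0.18 without PPARγ set 2), with PPARβ against PPARα and against PPARγ, and Slc27a4 with PPARγ against PPARα. With 1 array left out Acsl1 ranged from -1.06 to -0.13 over the 3 comparisons with DMSO. Acsl6 with the PPARα agonist against DMSO ranged from -1.10 to -0.06, the highest without PPARα set 2. For PPARβ against DMSO, Slc27a1 ranged from -0.78 to -0.25 and Acbd4 from -0.72 to -0.42. The set difference was added after the data were seen. Its 3 calls held under 14 of 15 alternatives, and at the 60th-percentile limit, where Acsl1 and Acsl6 are not tested, 1 call was made. Leaving out either array of a treatment gave the same fit of the set difference, so these alternatives are not all separate. The share of all genes called in it, 17.0 percent as reported, was 8.29 to 10.5 percent with 1 array left out, 5.8 percent without the intensity filter, 32.4 percent at the 60th-percentile limit and 25.5 percent with an intensity trend and robust variances.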
